A study of Homo sapiens with 6 samples.

Results

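The genes described here are 51 genes of mitosis: genes of the spindle checkpoint, the mitotic kinases, the centromere and kinetochore, the spindle and its motors, anaphase and cytokinesis. They were taken by symbol and not by a cut on values, but the list was chosen with earlier results of these data known. All 51 had counts among the 33514 gene symbols of the tables. All 51 also passed the filter on low counts that left 16209 genes for testing, the lowest count of any of them in any library being 365. RNA was sequenced from PC3, a line established from a bone metastasis of a human prostate cancer, grown in RPMI medium with serum and antibiotics. There were 3 groups of 2 libraries each: untreated cells (control), cells given 50 µM heme in the medium for 2 h, and cells given the same heme for 4 h. Heme, an iron porphyrin, is the oxygen-binding group of hemoglobin, and the study's title concerns hemopexin, a plasma protein that binds it, and MYC expression. The labels name no separate control for each time, so heme cannot be told apart from time or handling. The question for these genes is whether their RNA levels differed between the 3 groups.

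In mitosis each pair of sister chromatids is tied to the spindle through kinetochores, protein assemblies built on centromeres, and the spindle checkpoint holds back separation until every kinetochore is attached. CDK1 and the Polo-like and Aurora kinases drive entry and spindle assembly, the anaphase-promoting complex then marks securin and cyclins for destruction, and cytokinesis divides the cell. Many of these genes are transcribed mainly late in the cell cycle, and their RNA levels are widely used as a measure of proliferation in prostate cancer. In bulk RNA, fewer cells in mitosis and less of these RNAs per cell cannot be told apart.

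Reads counted to genes numbered between 53129375 and 55537611 per library. The first principal component, 58.0% of the variance between libraries, set the 2 h libraries apart from the other 4, with no overlap. The 2 h replicates were also less alike than those of the other groups, the chi-square per gene between replicates being 8.54 in controls, 31.6 at 2 h and 21.3 at 4 h. The epithelial genes KRT8, KRT18, KRT19, EPCAM and CDH1 summed to between 2138 and 2493 CPM (read counts scaled to library size), while the prostate luminal genes KLK3 and FOLH1 were at 0 in all libraries. Of other cell types, the 5 fibroblast genes summed to between 26.0 and 28.9 CPM in controls, between 43.1 and 49.8 at 2 h and between 24.7 and 32.6 at 4 h. The 4 endothelial genes summed to between 20.0 and 20.3 CPM in controls, between 34.4 and 41.9 at 2 h and between 18.6 and 19.9 at 4 h. The 6 blood genes summed to between 42.2 and 46.0 CPM in controls, between 47.5 and 55.2 at 2 h and between 43.6 and 44.4 at 4 h, and the red cell genes HBA1, HBA2 and HBB were at 0 throughout. The part of these differences in the results below was not tested. HMOX1, the inducible heme-degrading enzyme, was higher than in controls by 5.16 on the log2 scale at 2 h and by 5.05 at 4 h, and MYC by 1.16 at 2 h.

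After 2 h of heme, 25 of the 51 genes fell and 2 rose relative to control (edgeR's quasi-likelihood test, Benjamini-Hochberg adjusted p under 0.05). That is 49.0% and 3.92% of them, against 15.8% of all tested genes that fell and 15.9% that rose. Their median difference was -0.30 on the log2 scale, against 0.02 over all tested genes, and 40 of the 51 lay below 0, against 48.4%. At an unadjusted p under 0.05, 29 of the 51 differed, against 42.6% of all tested genes. In 30 of the 51 both 2 h libraries were below both controls, and in 5 both were above, against 33.2% and 34.6% of all tested genes. The falls were mostly modest: 13 genes fell by more than 1.5-fold and 4 of them, HJURP, KIF18A, KIF20B and CDCA8, by more than 2-fold. Over all 16209 tested genes, 845 fell by more than 1.5-fold and 170 by 2-fold or more. The count that fell was 16 without control replicate 1, when calls over all genes were 2282 in place of 5136. It was 20 without control replicate 2, 20 without 2 h replicate 1 and 28 without 2 h replicate 2. Calls over all tested genes moved in the same direction in each of these fits. Separate cultures are not stated for the replicates in the labels, so the p-values rest on a spread between libraries that could be technical only.

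**Figure D1:**
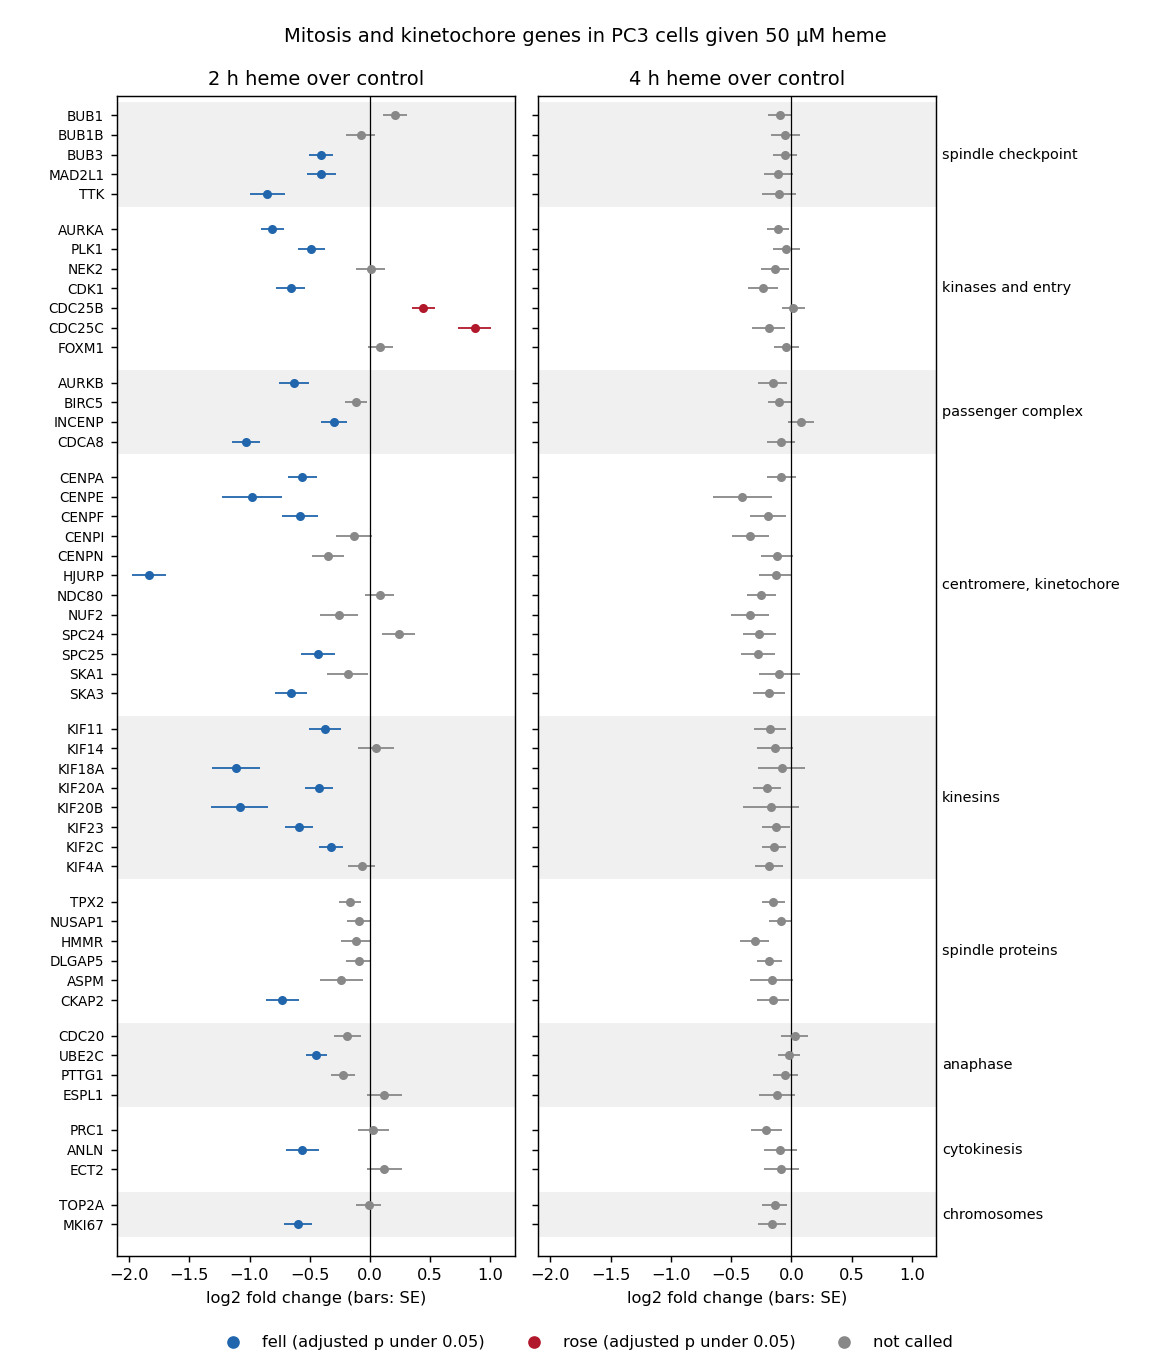
Log2 fold change with its standard error for each of the 51 genes, grouped by role, at 2 h of heme over control (left) and 4 h over control (right), from 2 libraries per group. Blue points fell and red points rose at an adjusted p under 0.05. At 2 h, 25 points are blue and 2 red, HJURP lying farthest left at -1.83; at 4 h no gene is called and the points lie between -0.41 and 0.08.

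HJURP, the chaperone that loads the centromeric histone variant CENPA, had the largest fall and CDC25C, a phosphatase that activates CDK1, the largest rise. HJURP (ENSG00000123485.11, GRCh38 chromosome 2, 233833416 to 233854566, minus strand) stood at 110.3 and 100.3 CPM in controls, 24.4 and 34.6 at 2 h, and 92.1 and 100.1 at 4 h. Both 2 h libraries lay far below the other 4, which differed little from each other. The 2 h level was 3.57-fold lower than in control (log2 -1.83, SE 0.14, edgeR adjusted p = 1.0e-06), the 28th largest fall of the 16209 tested genes. CDC25C (ENSG00000158402.19, chromosome 5, 138285265 to 138338355, minus strand) stood at 12.7 and 11.7 CPM in controls, 24.0 and 20.4 at 2 h, and 10.4 and 11.0 at 4 h. It was high in both 2 h libraries and in no other, 1.83-fold above control (log2 0.87, SE 0.14, edgeR adjusted p = 0.00036).

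The promoters of these 2 genes are shown because genes expressed late in the cell cycle are known to share promoter elements: a cell cycle homology region with the core TTTGAA, bound by MuvB complexes, and CCAAT boxes, bound by NF-Y. The sequences are RefSeq's (GRCh38.p14), the 250 bases before an annotated transcription start, read 5′ to 3′ on the gene's strand, with TTTGAA or CCAAT on either strand in capitals. The HJURP window is chr2:233854536-233854785, minus strand, and holds 1 TTTGAA, whose first base is 111 bases before the start, and 4 CCAAT or ATTGG. The CDC25C window is chr5:138331805-138332054, minus strand, one of 4 annotated starts of that gene, and holds TTTGAA 30 bases and ATTGG 85 bases before the start. It is shown because it holds both motifs: the same stretch before the other 3 starts holds no TTTGAA, and before 2 of them no CCAAT either.
HJURP promoter: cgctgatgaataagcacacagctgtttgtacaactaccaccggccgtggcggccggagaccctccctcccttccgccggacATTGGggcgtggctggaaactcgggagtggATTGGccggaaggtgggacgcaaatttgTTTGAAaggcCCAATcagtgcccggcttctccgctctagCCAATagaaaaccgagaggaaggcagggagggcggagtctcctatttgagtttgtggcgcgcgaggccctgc
CDC25C promoter: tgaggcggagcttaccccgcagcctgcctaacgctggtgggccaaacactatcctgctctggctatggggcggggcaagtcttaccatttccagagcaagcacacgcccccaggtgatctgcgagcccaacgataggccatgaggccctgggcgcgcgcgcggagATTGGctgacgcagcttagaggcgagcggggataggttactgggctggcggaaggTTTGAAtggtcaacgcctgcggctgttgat

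Windows of the same source, from 250 bases before to 50 after a start, were found for 44 of the 51 genes (54 windows). The other 7 were AURKA, BIRC5, BUB3, FOXM1, TPX2, TTK and UBE2C. TTTGAA, on either strand, was in a window of 33 of the 44 genes (75.0%), against 13.9% of the 11297 tested genes with a window. CCAAT, on either strand, was in 34 of the 44 (77.3%), against 42.6% of the same tested genes. The related letters TTCGAA were in 3 of the 44 (6.82%), against 2.27%; none of these 3 motifs contains another. By the call at 2 h against control, TTTGAA was in 16 of the 21 genes that fell, 1 of the 2 that rose and 16 of the 21 not called. CCAAT was likewise in 16 of 21, 2 of 2 and 16 of 21. The 30-base stretches that follow show the same 6 letters in 4 genes that fell, CDCA8, KIF18A, CENPA and PLK1, and in 3 that were not called, BUB1B, KIF4A and PRC1, with the motif in capitals. A match of letters is a description and not a binding site.
CDCA8, chr1:37692481-37692510, strand plus, first base of the motif 23 bases before the start: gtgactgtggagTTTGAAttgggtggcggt
KIF18A, chr11:28108149-28108178, strand minus, first base of the motif 10 bases before the start: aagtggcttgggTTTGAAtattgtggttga
CENPA, chr2:26786026-26786055, strand plus, first base of the motif 18 bases before the start: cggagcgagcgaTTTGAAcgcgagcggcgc
PLK1, chr16:23678848-23678877, strand plus, first base of the motif 29 bases before the start: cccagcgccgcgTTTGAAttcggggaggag
BUB1B, chr15:40161034-40161063, strand plus, first base of the motif 23 bases before the start: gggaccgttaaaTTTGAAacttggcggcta
KIF4A, chrX:70290058-70290087, strand plus, first base of the motif 34 bases before the start: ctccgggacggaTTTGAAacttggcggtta
PRC1, chr15:90994538-90994567, strand minus, first base of the motif 20 bases before the start: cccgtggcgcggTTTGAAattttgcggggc

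Genes of the centromere and kinetochore had 6 falls and no rise among 12 at 2 h. Besides HJURP, the histone variant CENPA itself fell by 0.56 on the log2 scale (SE 0.12), so both the chaperone and the histone it loads were lower. CENPE, a kinesin motor that carries chromosomes along spindle microtubules, stood at 50.4 and 42.2 CPM in controls, 14.4 and 32.7 at 2 h, and 37.5 and 32.4 at 4 h. Its 2 h libraries were both below the controls but differed from each other more than those of any other of the 51 genes. The fall was 0.98 on the log2 scale (SE 0.25, edgeR adjusted p = 0.00841). Its log2 value was -1.69 without 2 h replicate 2 and -0.50 without 2 h replicate 1, and DESeq2 did not call it (adjusted p = 0.0956).

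The outer kinetochore was uneven at 2 h. Of the NDC80 complex, the microtubule-binding core, SPC25 fell (log2 -0.43, SE 0.14), whereas NUF2 (log2 -0.26), NDC80 (log2 0.08) and SPC24 (log2 0.24) were not called. SPC24 was at 16.2 and 17.8 CPM at 2 h and 13.8 and 15.1 CPM in controls, so its groups did not overlap. Of the SKA complex, which steadies the attachment, SKA3 fell (log2 -0.66, SE 0.13) and SKA1 was not called (log2 -0.18, SE 0.17). CENPF, a large protein of the outer kinetochore, fell (log2 -0.58, SE 0.15), while CENPI and CENPN of the inner kinetochore were at -0.13 and -0.35 and not called, though DESeq2 called CENPN (adjusted p = 0.0336). The calls of SPC25 and CENPF were lost without control replicate 1 (edgeR adjusted p = 0.194 and 0.0858) and without 2 h replicate 1 (0.169 and 0.0578), and that of SPC25 also without control replicate 2 (0.0835). Without 2 h replicate 1 the log2 values were -0.27 for SPC25 and -0.31 for CENPF, and without 2 h replicate 2 CENPF was at -0.90.

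Of the 8 kinesins, 6 fell and none rose. KIF18A, a motor that dampens chromosome movement at the spindle equator, stood at 18.9 and 18.3 CPM in controls, 6.43 and 10.7 at 2 h, and 20.0 and 15.2 at 4 h. KIF20B, a motor of cytokinesis, stood at 38.3 and 30.9 CPM in controls, 10.6 and 22.0 at 2 h, and 33.4 and 28.1 at 4 h. For both, each 2 h library was below every other library, and replicate 1 was the lower of the 2. KIF18A fell 2.17-fold (log2 -1.12, SE 0.20, edgeR adjusted p = 0.000878) and KIF20B 2.12-fold (log2 -1.08, SE 0.23, edgeR adjusted p = 0.00322). The size of both falls depended on the 2 h library used. Without 2 h replicate 1 the log2 values were -0.80 for KIF18A and -0.65 for KIF20B, less than 2-fold, and without 2 h replicate 2 they were -1.53 and -1.70.

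KIF23 of centralspindlin fell by 0.59, KIF20A, which brings the passenger complex to the midzone, by 0.42, KIF11, which pushes spindle poles apart, by 0.37, and the microtubule depolymerase KIF2C by 0.32, all on the log2 scale. The chromokinesin KIF4A (log2 -0.07, SE 0.11) and KIF14 (log2 0.05, SE 0.15) were not called. Of these calls, those of KIF20A, KIF11 and KIF2C were lost without control replicate 1 (edgeR adjusted p = 0.131, 0.190 and 0.194). Those of KIF11 and KIF2C were also lost without 2 h replicate 1 (0.307 and 0.0613) and without control replicate 2 (0.106 and 0.104). The log2 value of KIF11 was -0.18 without 2 h replicate 1, -0.60 without 2 h replicate 2 and -0.19 with a correction for GC content and length.

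All 4 members of the chromosomal passenger complex, which corrects faulty attachments, were lower in both 2 h libraries than in both controls, and 3 of them fell. CDCA8 (borealin) stood at 86.2 and 89.0 CPM in controls, 39.8 and 46.2 at 2 h, and 75.4 and 89.4 at 4 h. Its 2 h libraries were about alike and well below the rest, a 2.04-fold fall (log2 -1.03, SE 0.12, edgeR adjusted p = 2.89e-05). The kinase AURKB fell by 0.63 on the log2 scale (SE 0.12). The scaffold INCENP, at 69.5 and 68.7 CPM at 2 h and 85.8 and 83.7 CPM in controls, fell by 0.30 (SE 0.11), just inside the threshold (edgeR adjusted p = 0.0476), and was not called with any 1 of the control or 2 h libraries left out (adjusted p between 0.0630 and 0.248). BIRC5 (survivin) was not called (log2 -0.12, SE 0.09).

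**Figure D2:**
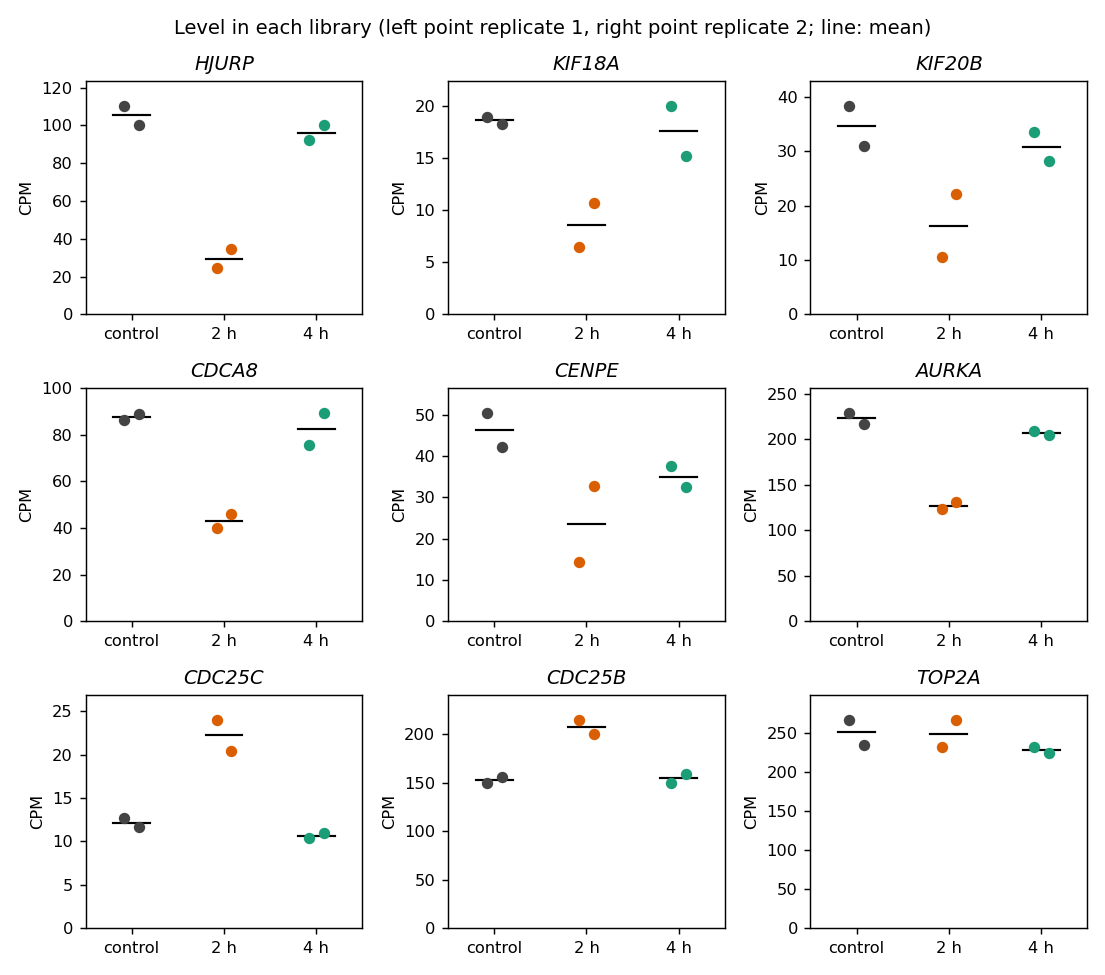
CPM in each of the 6 libraries for 9 of the genes, with untreated cells, 2 h and 4 h of heme from left to right; points are libraries and lines the mean of 2. HJURP, KIF18A, KIF20B, CDCA8, CENPE and AURKA are lowest in the 2 h libraries except that 1 CENPE library at 4 h (32.4) is level with 1 at 2 h (32.7), CDC25C and CDC25B are highest there, and TOP2A at 2 h (232 and 267) overlaps the controls (268 and 235).

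The kinases and regulators of mitotic entry moved both ways. AURKA, the spindle pole kinase, stood at 229 and 217 CPM in controls, 123 and 131 at 2 h, and 209 and 205 at 4 h. It fell 1.75-fold at 2 h with closely matching replicates (log2 -0.81, SE 0.09, edgeR adjusted p = 3.12e-05). CDK1, the kinase that drives entry, fell by 0.66 on the log2 scale (SE 0.12) and the Polo-like kinase PLK1 by 0.49 (SE 0.11). NEK2, a centrosome kinase, and FOXM1, a transcription factor of mitotic genes, were not called, at 0.00 (SE 0.12) and 0.09 (SE 0.10). CDC25B, the other phosphatase that activates CDK1 in this list, stood at 149.6 and 156 CPM in controls, 215 and 200.3 at 2 h, and 149.7 and 159 at 4 h. Both 2 h libraries were above the other 4 (log2 0.44, SE 0.09, edgeR adjusted p = 0.0029); without control replicate 1 the rise was 0.41 and not called (adjusted p = 0.0623). These 2 phosphatases were the only ones of the 51 genes that rose in this fit. With a correction for GC content and length 5 others also did, when rises over all tested genes were 3498 in place of 2579. Exons of CDC25C overlap those of FAM53C on the opposite strand by 293 bases in the GENCODE annotation, and FAM53C also rose at 2 h (log2 0.72, SE 0.11). The strand setting of the counting is not given in the sources used here, so reads of this overlap cannot be assigned, and their part in the CDC25C value was not tested.

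Of 5 spindle checkpoint genes, 3 fell. TTK, the kinase that starts the checkpoint signal, stood at 44.3 and 40.3 CPM in controls, 19.9 and 27.0 at 2 h, and 41.6 and 37.0 at 4 h, and fell 1.80-fold at 2 h (log2 -0.85, SE 0.14, edgeR adjusted p = 0.000557). BUB3, which brings BUB1 and BUB1B to kinetochores, fell by 0.41 on the log2 scale (SE 0.10) and MAD2L1, which inhibits CDC20, by 0.40 (SE 0.12). The kinase BUB1 was higher in both 2 h libraries, 80.2 and 85.2 CPM, than in both controls, 73.9 and 69.6 CPM, but was not called (log2 0.20, SE 0.10, edgeR adjusted p = 0.131). BUB1B, part of the checkpoint complex, was not called (log2 -0.08, SE 0.12). The calls of BUB3 and MAD2L1 were lost without control replicate 1 (edgeR adjusted p = 0.0788 and 0.100), that of MAD2L1 also without control replicate 2 (0.0792) and without 2 h replicate 1 (0.141, log2 -0.23).

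Of 6 spindle proteins, 1 fell (16.7%, close to the 15.8% of all tested genes): CKAP2, a microtubule-associated protein of the spindle, by 0.73 on the log2 scale (SE 0.13). The other 5 were all slightly below 0 and not called: TPX2, the activator of AURKA (log2 -0.17), NUSAP1 (log2 -0.09), HMMR (log2 -0.12), DLGAP5 (log2 -0.09) and the spindle pole protein ASPM (log2 -0.24). Of 4 anaphase genes, UBE2C, the ubiquitin-conjugating enzyme of the anaphase-promoting complex, fell by 0.45 (SE 0.09), with 166 and 164 CPM at 2 h and 223 and 227 CPM in controls. The complex's activator CDC20 (log2 -0.19), securin, PTTG1 (log2 -0.22), and separase, ESPL1 (log2 0.12), were not called.

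Of 3 cytokinesis genes, the contractile ring protein ANLN fell by 0.56 on the log2 scale (SE 0.13), a call lost without control replicate 1 (edgeR adjusted p = 0.0691); without 2 h replicate 1 its log2 value was -0.34. The midzone bundling protein PRC1 (log2 0.03) and the contractile ring activator ECT2 (log2 0.12) were not called. The proliferation marker MKI67, which coats mitotic chromosomes, fell by 0.60 (SE 0.12), with 169 and 217 CPM at 2 h and 312 and 272 CPM in controls. TOP2A, the topoisomerase that untangles sister chromatids, was at 232 and 267 CPM at 2 h and 268 and 235 CPM in controls, groups that overlapped (log2 -0.01, SE 0.10). These 2 genes, both used as markers of proliferating cells, therefore differed in their 2 h values. Across the 24 genes not called, log2 values at 2 h ran from -0.35 for CENPN to 0.24 for SPC24.

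The genes spanned a wide range of levels. Per kilobase of exon in controls, UBE2C was highest (175 CPM per kb), followed by CDC20 (102), AURKA (76.2), TPX2 (74.1) and CDK1 (72.3), and ASPM (2.68) and ESPL1 (2.46) were lowest. None of the 6 lowest genes in this order fell. Just above them, KIF18A (3.98), CENPE (4.91) and KIF20B (5.05) fell and KIF14 (5.03) was not called. The median control level was 84.8 CPM in the genes that fell and 46.6 CPM in those not called. Summed over all 51, the genes made up 5141 and 4880 CPM in controls, 3760 and 4266 CPM at 2 h, and 4604 and 4635 CPM at 4 h. Both 2 h sums were the lowest of the 6, and the 4 h sums lay between them and the controls.

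The 2 replicates at 2 h did not measure these genes alike. In 43 of the 51 genes (84.3%), 2 h replicate 1 was lower than 2 h replicate 2, against 50.0% of all tested genes, with a median difference of -0.21 on the log2 scale, against 0.00. The difference ran from -1.16 for CENPE to 0.25 for CDC20. Across the 51 genes it followed the GC content of the transcript (Spearman correlation 0.72) and, in the other direction, transcript length (-0.49), as it did over 16088 tested genes (0.51 and -0.26); the genes share their 2 libraries, so these are descriptions. The fitted change at 2 h itself had a Spearman correlation of 0.20 with GC content and 0.00 with length over the 51 genes, and 0.31 and -0.02 over the 16088. The median GC content was 42.6% in the 51 genes and 48.8% in the 16088. Of the 17 genes with the lowest GC content 9 fell, of the middle 17 it was 7, and of the highest 17 it was 9. With each library corrected for GC content and length, an alternative chosen after the data were seen, 24 genes fell and 7 rose. Over all tested genes 2827 fell and 3498 rose with this correction, in place of 2557 and 2579. SPC25 and KIF11 were then no longer called, CDC20 fell, and BUB1, NEK2, NDC80, DLGAP5 and ECT2 rose (log2 0.37, 0.23, 0.34, 0.16 and 0.31). The median of the 51 genes was then -0.19, in place of -0.30, and that of all tested genes 0.06, in place of 0.02. The falls of CDK1, CKAP2 and MAD2L1 were then -0.35, -0.47 and -0.25 on the log2 scale, and SPC25, not called, stood at -0.14.

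**Figure D3:**
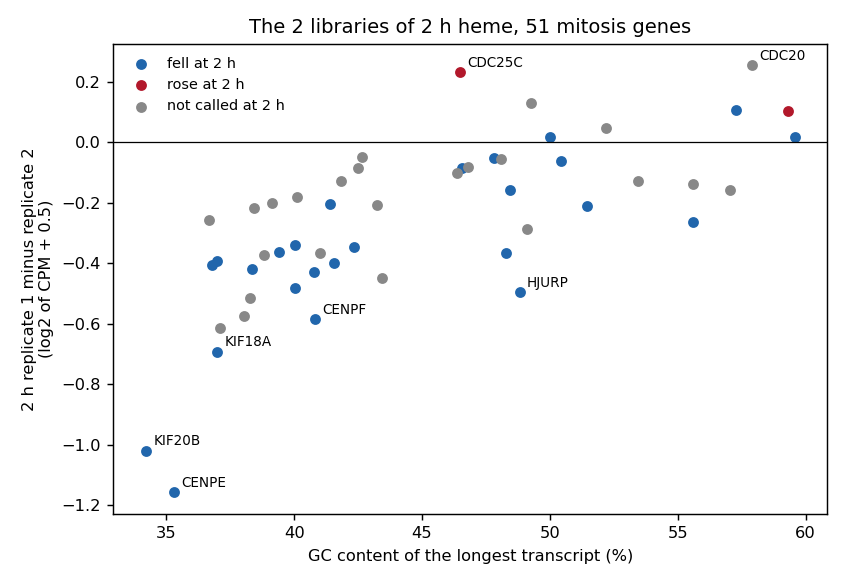
Difference between the 2 libraries of 2 h heme (replicate 1 minus replicate 2, log2 of CPM + 0.5) for each of the 51 genes against the GC content of its longest transcript. Colours give the call at 2 h over control. Points lie lower toward low GC content, CENPE and KIF20B lowest, and genes that fell occur along the whole range.

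After 4 h of heme none of the 51 genes was called against control by edgeR, and none by DESeq2. At an unadjusted p under 0.05 there were 3, the kinetochore genes CENPI and NUF2 and the spindle protein HMMR, all lower, which is 5.88% of the genes, against 3.6% of all tested genes. Over all tested genes 0.00617% fell, 0.0247% rose and 0.0308% were called in either direction at 4 h by edgeR. The count of 3 became 8 with only the compared groups, 2 with DESeq2 size factors and 12 with the GC and length correction. Over all tested genes, 583 became 989, 587 and 1093 in the same order. With no filter the count was 5, against 846 of 25260 genes. Differences from control were small, from -0.41 for CENPE to 0.08 for INCENP on the log2 scale, with standard errors between 0.09 and 0.25. They lay mostly on 1 side: 48 of the 51 were below 0, with a median of -0.14, against 50.9% below 0 and a median of 0.00 over all tested genes. The median of the 51 was -0.08 without control replicate 1 and -0.20 without control replicate 2. In 28 of the 51 (54.9%) both 4 h libraries were below both controls, against 17.4% of all tested genes, and in none were both above, against 17%. No test of this shared shift was made, and each gene's own difference did not pass the threshold.

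The 3 genes with an unadjusted p under 0.05 were low in both 4 h libraries, though no member had an edgeR adjusted p below 0.99995. HMMR was at 56.7 and 48.4 CPM at 4 h and 68.4 and 61.3 CPM in controls (log2 -0.30, SE 0.12). CENPI was at 12.8 and 13.2 CPM at 4 h and 17.6 and 15.2 CPM in controls (log2 -0.34, SE 0.15), and NUF2 at 25.9 and 20.2 CPM at 4 h and 31.7 and 26.7 CPM in controls (log2 -0.34, SE 0.16). None of the 3 had been called at 2 h. HJURP, the gene with the largest fall at 2 h, was at log2 -0.13 (SE 0.14) at 4 h, and CDC25C at -0.19 (SE 0.14).

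**Figure D4:**
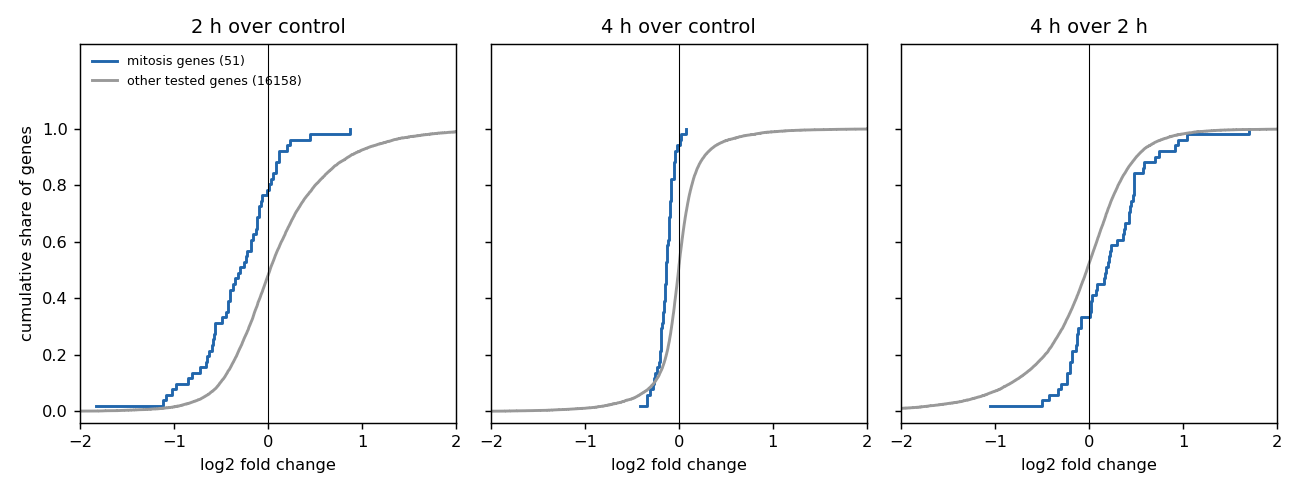
Cumulative share of genes by log2 fold change for the 51 mitosis genes (blue) and the other tested genes (grey), at 2 h over control, 4 h over control and 4 h over 2 h. The blue curve lies left of the grey at 2 h (medians -0.30 and 0.02) and, closer to 0, at 4 h (-0.14 and 0.00), and right of it for 4 h over 2 h (0.18 and -0.03).

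Compared directly with 2 h, 18 of the 51 genes were higher at 4 h and 4 were lower (edgeR's quasi-likelihood test, adjusted p under 0.05), against 14% and 14.1% of all tested genes. At an unadjusted p under 0.05 the 2 times differed in 26 of the 51 genes, against 39.9% of all tested genes. The median difference was 0.18 on the log2 scale, against -0.03 over all tested genes. It was 0.09 without 2 h replicate 1, without 4 h replicate 1 or with the GC and length correction, 0.12 without 4 h replicate 2, and 0.34 without 2 h replicate 2. Both 4 h libraries were above both 2 h libraries in 23 genes, against 29.6% of all tested genes, and below both in 8, against 32.7%. HJURP rose most at 4 h over 2 h (log2 1.70, SE 0.14, edgeR adjusted p = 1.61e-06), followed by KIF18A (log2 1.03), CDCA8 (log2 0.94), KIF20B (log2 0.91), TTK (log2 0.75) and AURKA (log2 0.70). The others that rose were CKAP2 (log2 0.58), CENPA, AURKB, SKA3, ANLN, KIF23, PLK1, MKI67, CDK1, UBE2C, INCENP and BUB3, the last 11 between 0.36 and 0.48. CDC25C fell (log2 -1.06, SE 0.14, edgeR adjusted p = 8.01e-05), as did SPC24 (log2 -0.50), CDC25B (log2 -0.43) and BUB1 (log2 -0.30). The BUB1 call (edgeR adjusted p = 0.0366) was lost with DESeq2 size factors, no filter, a replicate block or only the compared groups. Its log2 value was -0.34 without 2 h replicate 1 and -0.26 without 2 h replicate 2. The comparison of 4 h with 2 h uses the same 2 h libraries as the one with control, so the 2 are not independent. Fewer of the 51 genes rose without either 4 h library or without 2 h replicate 1, and calls over all tested genes were then also fewer. Without 2 h replicate 1 more of the 51 fell. The log2 values of KIF20B, KIF23, SKA3, MKI67, ANLN and CDK1 were then 0.48, 0.30, 0.28, 0.27, 0.25 and 0.24. Without 2 h replicate 2, KIF20B was at 1.54 and ANLN at 0.73, and without 4 h replicate 2, PLK1 was at 0.29 and INCENP at 0.24. With the GC and length correction 21 rose and 14 fell, with CDK1 at 0.20 and CKAP2 at 0.38. Over all tested genes 2828 then rose and 3346 fell, in place of 2270 and 2288. Under every alternative TTK, AURKA, CDCA8, HJURP and UBE2C rose and CDC25B and CDC25C fell. Each of the other genes called at 4 h over 2 h lost its call under some alternative. Among them were BUB3 and AURKB without 2 h replicate 1, and PLK1, INCENP and CENPA without 4 h replicate 2.

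At 2 h against control, 15 of the 25 falls held under all 12 alternatives to the fit: TTK, AURKA, PLK1, CDK1, AURKB, CDCA8, CENPA, HJURP, SKA3, KIF18A, KIF20B, KIF23, CKAP2, UBE2C and MKI67. So did the rise of CDC25C and the absence of a call for 14 of the 24 other genes. How many of the falls over all tested genes held in the same way was not computed. Calls over all genes were fewer in several of these fits, so a lasting absence of a call does not show that a gene was unchanged.

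Further genes of cell division showed similar counts. Of 111 other mitotic genes 47 fell and 2 rose at 2 h (median log2 -0.27). The 4 falls with the smallest p were of CCNF, a cyclin of a ubiquitin ligase (log2 -1.75, SE 0.12), FAM83D, a spindle protein (log2 -1.30, SE 0.11), FBXO5, an inhibitor of the anaphase-promoting complex (log2 -1.71, SE 0.16), and CKAP2L (log2 -1.12, SE 0.13). Those that rose were the midbody kinase CIT (log2 0.70, SE 0.12) and the spindle pole protein NUMA1 (log2 0.44, SE 0.10). CCNF was at 19.4 and 22.2 CPM at 2 h and 72.6 and 67.3 CPM in controls, a fall close to that of HJURP. None of the 111 was called at 4 h against control, and 4 (3.6%) passed an unadjusted p of 0.05, the same share as over all tested genes.

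Of 50 DNA replication genes 22 fell and none rose at 2 h (median log2 -0.28), the 4 with the smallest p being GMNN, an inhibitor of origin licensing (log2 -1.24, SE 0.13), DBF4, the activator of the CDC7 kinase (log2 -1.37, SE 0.16), cyclin E, CCNE1 (log2 -1.05, SE 0.14), and GINS3 of the replicative helicase (log2 -0.92, SE 0.13). Falls at 2 h made up 49.0% of the 51 genes and 44.0% of the replication genes, a difference that was not tested. Of 15 genes of MuvB, E2F and NF-Y, factors that act on the promoters of cell cycle genes, 6 fell (40.0%) and 2 rose (13.3%), against 15.8% and 15.9% of all tested genes. Named after their values were seen, they included the MuvB subunit LIN9 (log2 -0.82) and the NF-Y subunits NFYB (log2 -0.78) and NFYA (log2 -0.53), which fell, and the pocket protein RBL2 (log2 0.44), which rose. Of the cyclins that partner CDK1, also chosen after their values were seen, CCNA2 (log2 -0.86, SE 0.13) and CCNB1 (log2 -0.48, SE 0.09) fell at 2 h, and CCNB2 was not called (log2 0.12, SE 0.10).

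**Figure D5:**
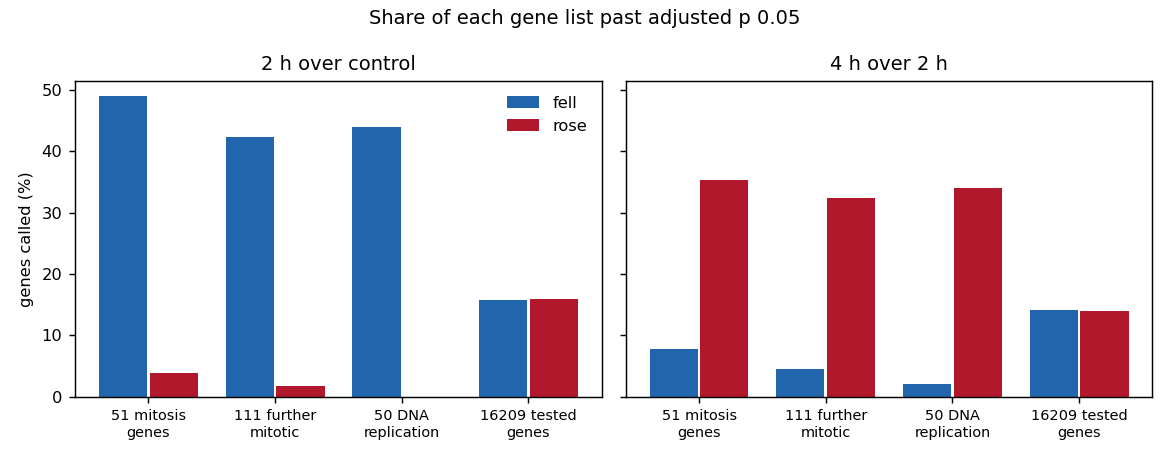
Share of genes that fell (blue) or rose (red) at an adjusted p under 0.05, for the 51 mitosis genes, 111 further mitotic genes, 50 DNA replication genes and all 16209 tested genes, at 2 h over control (left) and 4 h over 2 h (right). At 2 h 49.0%, 42.3%, 44.0% and 15.8% fell; at 4 h over 2 h 35.3%, 32.4%, 34.0% and 14% rose.

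Counting could blur a few of the genes. In the GENCODE annotation, exons of PRC1 share 3181 bases on the same strand with the gene model AC068831.7, which held between 97 and 403 counts, so reads there cannot be assigned to 1 gene by position. AC068831.7 itself fell at 2 h (log2 -1.42, SE 0.27) and rose at 4 h over 2 h (log2 1.29). The part of this overlap in the level and changes of PRC1 was not tested. FOXM1 shares 781 bases with ITFG2 and CENPN 457 bases with CMC2, both on the opposite strand, and CENPA 138 bases with SLC35F6 on the same strand. PTTG2, a near-identical copy of PTTG1, held at most 1 count, against at least 5784 for PTTG1. BUB1B shares 457 exon bases on the same strand with the gene model BUB1B-PAK6, which held at most 5 counts, and reads in the shared exons cannot be assigned by position.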

How the data were processed

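The authors deposited raw counts of reads per gene symbol, 1 table per library, in the layout and with the summary lines of HTSeq. The submitters' processing notes name STAR, Trimmomatic, deepTools, SAMtools and the build hg38. For the strand setting, annotation release and read layout, the answer is not given in the sources used here. Trizol extraction and an Illumina TruSeq kit were used, per the labels' protocols. The 5 summary lines were removed first. They held 0 reads aligned to several places, ambiguous reads (4.23% to 4.48% of a library) and reads outside genes (5.48% to 6.88%).

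Coordinates, lengths, GC content and overlaps come from GENCODE release 29 on GRCh38, in which 33164 of 33514 symbols matched 1 gene, and promoters from RefSeq (GRCh38.p14). Tests used edgeR 4.0.16 in R 4.3.3 on all genes left by filterByExpr (minimum count 10): TMM normalization and the quasi-likelihood test, 1 fit over all 6 libraries (biological coefficient of variation 0.0982, 3 residual degrees of freedom). The test was two-sided, with Benjamini-Hochberg adjustment over all 16209 genes and a threshold of 0.05. "Fell" and "rose" mean past that threshold. Standard errors were taken from each fold change and its F value. CPM uses TMM-scaled library sizes, except for sums of marker genes. No set test was run.

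The members and lists were chosen with earlier results of these data known. All 51 members are named; values per library are given for the 5 largest falls and 5 largest rises among called members (only 2 rose), for members called against their group, and, chosen after values were seen, for some others. Of the 2 further lists the 4 called genes with the smallest p in each direction are named. The 12 alternatives were DESeq2 1.42.0, its size factors, no filter, a replicate block, only the compared groups, leaving out each of 6 libraries, and, added after the data were seen, a GC and length correction.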

Additional observations from a re-analysis of the deposited data

Results flagged for a closer look

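RNA levels differed between 2 h and 4 h of heme in 22 of the 51 genes (edgeR's quasi-likelihood test, adjusted p under 0.05). On the log2 scale, 4 h minus 2 h, the genes higher at 4 h were HJURP (1.70), KIF18A (1.03), CDCA8 (0.94), KIF20B (0.91), TTK (0.75), AURKA (0.70), CKAP2 (0.58), CENPA (0.48), AURKB (0.47), SKA3 (0.47), ANLN (0.47), KIF23 (0.46), PLK1 (0.45), MKI67 (0.44), CDK1 (0.43), UBE2C (0.43), INCENP (0.37) and BUB3 (0.36). Those lower at 4 h were CDC25C (-1.06), SPC24 (-0.50), CDC25B (-0.43) and BUB1 (-0.30). Of all these genes, only TTK, AURKA, CDCA8, HJURP, UBE2C, CDC25B and CDC25C kept their calls under every alternative. Since both times were set against the same controls, a difference between times equals the difference between their changes from control. Without a control for each time, heme cannot be told apart from time or handling.

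Among the named genes outside the 51, the same difference was positive for CCNF (1.80), FBXO5 (1.59), FAM83D (1.24), CCNE1 (1.22), DBF4 (1.17), GMNN (1.09), GINS3 (0.98), CKAP2L (0.91), LIN9 (0.80), E2F5 (0.76), CCNA2 (0.63), NFYA (0.63), NFYB (0.59) and CCNB1 (0.44), and negative for MYC (-1.08), CIT (-0.92), FAM53C (-0.66), TFDP2 (-0.52), NUMA1 (-0.36), RBL2 (-0.34) and CCNB2 (-0.31). The groups were too small, at 2 libraries each, for single libraries to be examined as outliers.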

How the results depend on the processing

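With 2 libraries per group, the calls rest on 3 residual degrees of freedom. The count of the 51 genes that fell at 2 h was 25 by edgeR and between 24 and 26 with DESeq2, its size factors, no filter, only the compared groups or the GC and length correction. Leaving out 1 library gave between 16 and 28 genes that fell and between 1 and 3 that rose at 2 h, none at 4 h, and at 4 h over 2 h between 2 and 7 that fell and between 9 and 24 that rose. Over all genes it gave between 2282 and 6195 calls at 2 h (5136 with all libraries), between 3 and 15 at 4 h (5 with all), and between 2181 and 5720 at 4 h over 2 h (4558 with all). With the GC and length correction, chosen after the data were seen, 7 of the 51 rose at 2 h and 14 fell at 4 h over 2 h. Over all tested genes 3498 then rose at 2 h and 3346 fell at 4 h over 2 h. DLGAP5 turned to log2 0.16 at 2 h (edgeR adjusted p = 0.048), a gene not called without the correction. All-gene calls at 4 h were then 17, and 15 with DESeq2, 10 without a filter and 15 with only the compared groups. The cause of these moves was not tested. Same-numbered replicates did not deviate together (correlations -0.09, 0.07 and -0.02), so the numbers do not pair the samples; with a replicate block 24 genes fell and 2 rose at 2 h, 0 were called at 4 h, and all-gene calls were 4809 at 2 h and 6 at 4 h.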
